A study of Rattus norvegicus with 10 samples.

Results

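The proteasome subunit genes of rat liver were compared between a diet of instant noodles with its seasonings and the same diet without them. Members were the genes whose symbol in the array's gene table begins with Psm, a letter from a to g and a number, each represented by its brightest probe set among those assigned to that gene alone. There were 46 such genes of 14217 measured, 16 in the core (Psma and Psmb), 6 ATPases (Psmc), 14 in the lid and base (Psmd) and 8 activators, inhibitors and chaperones (Psme, Psmf and Psmg). The other 2, Psmc3ip and Psme3ip1, match the symbol rule but encode partner proteins of a subunit and of an activator rather than parts of the complex. Psmb6 and Psme3 had probe sets assigned to several genes and were left out by the rule.

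The livers came from male rats aged 13 weeks, and the labels used here do not name their strain. The seasoned animals (N-group, 5 livers, animals 1, 4, 7, 10 and 13) ate for 30 days a feed with 30% instant noodle by weight and 26% of its energy from fat. The controls (C-group, 5 livers, animals 2, 5, 8, 11 and 14) ate that feed lacking the seasonings, and rations were matched at about 60 g per kg of body weight a day. Noodle and fat were shared by both groups, so the diets differed by the seasonings, while the letter of the sample code (A for every seasoned liver, B for every control) cannot be told apart from the diet.

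The proteasome is the protease that degrades proteins tagged with ubiquitin. Its barrel-shaped core holds the catalytic sites inside rings of beta subunits that are capped by rings of alpha subunits, and a regulatory particle with an ATPase ring, a base and a lid recognises, unfolds and feeds in the substrate. Interferons replace the constitutive catalytic subunits by Psmb8, Psmb9 and Psmb10, which yields the immunoproteasome that makes peptides for antigen presentation. When proteasome activity is short, the transcription factor Nfe2l1 induces most subunit genes together through antioxidant response elements in their promoters. In liver the complex disposes of enzymes and regulators with short lives, among them the sterol-regulated reductase of cholesterol synthesis.

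In the deposited log2 signals most proteasome genes hardly moved from liver to liver. Of the 46 members 30 had an SD over the 10 livers between 8.3e-05 and 0.00032 log2 units, and these are called near-constant here, while 16 had an SD above 0.01 and are called varying. That made 34.8% of the members varying, against 18.4% of all 14217 genes. Psmc3ip had a mean of 6.45, and every other member a mean above the median of all signals (6.48). The shares were not compared among genes of like brightness. The members nearest the limit were Psmd14, with an SD of 0.000324, and Psmf1, with 0.0218, so that no member lay close to it. In all genes too, 280 (1.97%) had an SD between 0.001 and 0.05. A difference within the near-constant class has no measurable size, whatever its p-value. Among the near-constant members the largest difference between the diets was 0.00036, and Psma5 and Psmd11 had unadjusted p-values of 0.0184 and 0.0484 by limma with differences of 0.00015 and 0.00014.

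Upstream stretches of 4 members are shown because the same promoter letters stand before a varying and a near-constant subunit. Each is the last 100 bases before the annotated gene start in the RefSeq promoter table (build GRCr8), written 5′ to 3′ on the gene's strand. In Psmb5 and Psmb2 the capitals mark the antioxidant response element letters TGACNNNGC, and in Psmb10 and Psmd7 the interferon response element letters, GAAA repeated after a gap of 2 bases, read on either strand. Psmb5 and Psmb10 were chosen as the varying core genes with the smallest p, and Psmb2 and Psmd7 as near-constant members with the same letters.
Psmb5, varying, chr15:32047380-32047479, minus strand: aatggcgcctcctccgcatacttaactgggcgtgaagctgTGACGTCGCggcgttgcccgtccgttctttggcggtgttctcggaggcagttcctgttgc
Psmb2, near-constant, chr5:144254958-144255057, plus strand: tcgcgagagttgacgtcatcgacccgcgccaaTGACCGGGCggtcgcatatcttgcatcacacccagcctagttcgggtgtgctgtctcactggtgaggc
Psmb10, varying, chr19:50743293-50743392, minus strand: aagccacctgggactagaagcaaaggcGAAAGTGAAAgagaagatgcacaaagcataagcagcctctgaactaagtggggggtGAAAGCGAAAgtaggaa
Psmd7, near-constant, chr19:52411317-52411416, minus strand: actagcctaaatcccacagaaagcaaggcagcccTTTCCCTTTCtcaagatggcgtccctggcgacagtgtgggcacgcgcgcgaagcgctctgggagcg

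Promoters of 300 bases were found for 40 of the 44 members other than Psmc3ip and Psme3ip1, and for 13242 genes on the array. TGACNNNGC, the letters bound by Nfe2l1 and Nfe2l2 with their Maf partners, occurred on either strand in 7 of the 40 (17.5%) and in 14.1% of all 13242. The members were the varying Psmb5, Psmd9 and Psme4 and the near-constant Psma3, Psmb2, Psmd1 and Psmd3. The interferon response element occurred in 7 of 40 (17.5%) against 3.01% of all. Psmb10 held it at positions -73 to -64 and -17 to -8 from the gene start, and Psmb8 at -4 to 5 on the opposite strand. The other 5 were the varying Psmb3 and the near-constant Psma4, Psmd7, Psme2 and Psmg4. The CCAAT box letters (CCAAT) were in 20 of 40 member promoters (50%) and in 36.8% of all. The clock letters CACGTG, a palindrome, occurred in 4 of 40 (10%) and in 8.62% of all, and TTATGNAA in 1 of 40 (2.5%) and in 1.93%. Both strands were searched for every motif, matches of different motifs were counted whether or not they overlapped, and a match is a description of letters only.

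**Figure D1:**
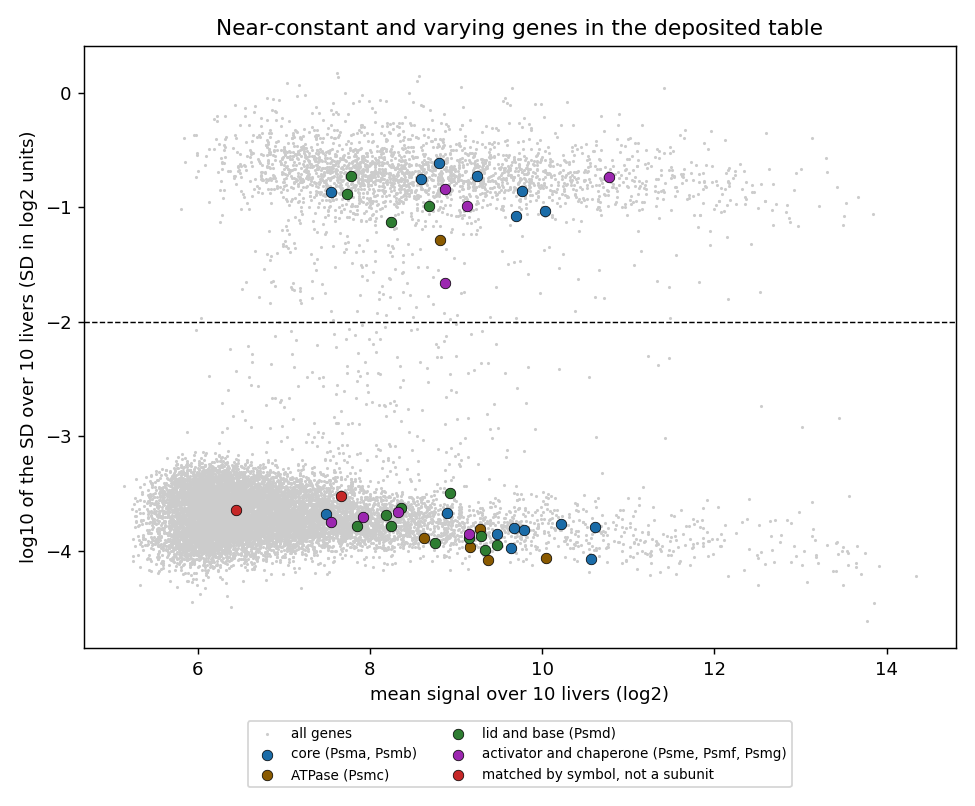
Mean signal of each gene over 10 livers (log2, horizontal) against the log10 of its SD (vertical), with all genes in grey, proteasome genes coloured by class and the limit of 0.01 as a dashed line. The 30 near-constant members lie in the lower band and the 16 varying members in the upper band.

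The split is set out next by the members' roles, beside the 18.4% of all genes that varied. Of the 30 subunits that build the constitutive core, the ATPase ring, the lid and the base, 6 varied, a share near that of all genes. They were Psma7, Psmb3, the catalytic Psmb5 and Psmb7, the ATPase Psmc1 and the ubiquitin receptor Psmd4. The other 24 include 6 of the 7 alpha subunits, 5 of the 6 ATPases and 10 of the 11 lid or base subunits. Of 7 assembly chaperones 4 varied, and these were Psmg1, which helps to form the alpha ring, and the base chaperones Psmd5, Psmd9 and Psmd10. The 3 immunoproteasome catalytic subunits all varied, as did the activators Psme1 and Psme4 and the inhibitor Psmf1, while the activator Psme2 was near-constant at 9.15. No test was made of this distribution, since no source used here says how the near-constant values were summarised. It also depends on the probe set taken. A dimmer probe set of the near-constant Psmd11 varied, and dimmer ones of Psmb5, Psmd9 and Psme1 were near-constant.

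No proteasome gene passed the test between the diets. By limma over all 14217 genes 0 of 46 members had an adjusted p under 0.05, where 0% of all genes did, and the smallest adjusted p of a member was 0.845. At an unadjusted p under 0.05 there were 3 of 46 members (Psma5, Psmd11 and Psmd10), which is 6.52% beside 4.71% of all genes. Psma5 and Psmd11 are near-constant. Among the varying genes of the same fit there was 1 of 16 members (Psmd10), which is 6.25% beside 11.6% of all varying genes. When the 2613 varying genes were tested alone, 0.153% of them and 0 of 16 members were called, with a smallest adjusted p of 0.357 for Psmd10. The groups did not overlap in 2.72% of varying genes and in 0 of the 16 members, and over all genes in 0.879% and in 0 of the 46.

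The direction of the small differences was mostly the same. In 15 of the 16 varying members the mean signal was higher in the seasoned livers, with a median log2 difference of 0.067, while 57.3% of all varying genes had a positive difference, with a median of 0.017. The differences ran from 0.02 to 0.13 in those 15, and Psmd10 alone was lower, by 0.17. After each array was centred on the median of its varying genes 13 of 16 were positive and the median was 0.043, with Psmd4 and Psmf1 at -0.001 and -0.007. With lower and higher animal numbers (up to 7, and from 8) as a block 14 of 16 were positive and the median was 0.047. Leaving out seasoned animal 7 gave a median of 0.039, leaving out seasoned animal 10 gave 0.102, and leaving out control animal 5 gave 0.101. No chance value is attached to the count, because the members share livers and correlate with each other.

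**Figure D2:**
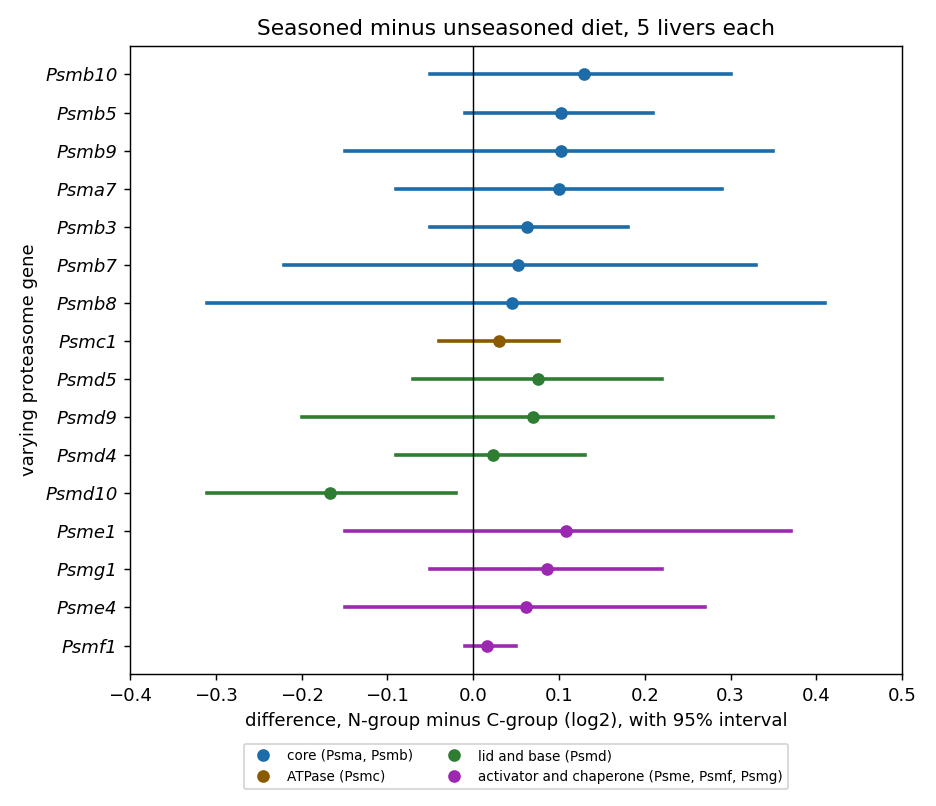
Log2 difference, N-group minus C-group, of the 16 varying proteasome genes with its 95% interval from limma (5 livers per group), coloured by class. The points of 15 genes lie between 0.02 and 0.13, and the interval of Psmd10 alone does not reach 0.

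Among the core genes 7 of 16 varied and all 7 had positive differences, with a median of 0.10. This median was 0.056 without seasoned animal 7, 0.053 without control animal 11, 0.063 with the mean of all probe sets of a gene and 0.061 with lower and higher animal numbers (up to 7, and from 8) as a block. Psmb5, which carries the chymotrypsin-like activity, was at 10.18, 10.01, 10.20, 9.96 and 10.07 in seasoned animals 1, 4, 7, 10 and 13, and at 10.05, 9.98, 9.94, 9.97 and 9.96 in control animals 2, 5, 8, 11 and 14. Seasoned animals 1, 7 and 13 lay above every control, and animals 4 and 10 among them. The log2 difference was 0.10 ± 0.05 (SE, 5 livers per group), or 1.07-fold, with a 95% interval from -0.01 to 0.21 (limma unadjusted p = 0.0686, adjusted p = 0.999 over all genes). The other 2 probe sets of Psmb5 were dimmer and near-constant, at 6.25 or less, and the mean over its probe sets differed by 0.034.

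Psmb7, with the trypsin-like activity, was at 9.58, 9.29, 9.37, 8.97 and 9.12 with seasoning and at 9.34, 9.35, 9.11, 9.01 and 9.25 without. Its highest and its lowest liver were both seasoned, and the difference was 0.05 ± 0.12, or -0.027 without seasoned animal 1 and 0.126 without seasoned animal 10. Psma7, an alpha subunit, had signals of 10.01, 9.75, 9.87, 9.69 and 9.76 with seasoning and 9.88, 9.84, 9.65, 9.52 and 9.69 without (difference 0.10 ± 0.08). Psmb3, a structural beta subunit, had 9.81, 9.68, 9.76, 9.62 and 9.80 with seasoning and 9.80, 9.66, 9.57, 9.63 and 9.70 without (0.06 ± 0.05). Psma7 was 0.051 without seasoned animal 1 and 0.052 without control animal 11. Psmb3 was 0.039 without control animal 8 and 0.095 without control animal 2. In both genes the diets overlapped over most of their range, and the controls nearest the seasoned livers included animal 2.

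The 3 immunoproteasome subunits differed from liver to liver more than from diet to diet. Psmb10, which replaces the trypsin-like subunit, was at 7.72, 7.66, 7.79, 7.42 and 7.49 with seasoning and at 7.44, 7.61, 7.43, 7.49 and 7.48 without. Seasoned animals 1, 4 and 7 were above every control, while animals 10 and 13 lay within the control range or just under it. The difference of 0.13 ± 0.08 was the largest positive one among the members' brightest probe sets, at 1.09-fold (95% interval -0.05 to 0.30, adjusted p = 0.999 over all genes by limma). It was 0.085 without seasoned animal 7 and 0.209 with array weights. Among the lower animal numbers it was 0.20, and among the higher ones -0.01.

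Psmb8, the counterpart of Psmb5, was at 8.73, 8.75, 9.28, 8.59 and 8.76 with seasoning and at 8.37, 9.03, 8.91, 8.81 and 8.76 without. Seasoned animal 7 was the highest liver and control animal 2 the lowest, and the remaining livers of both diets were interspersed. Without animal 7 the difference went from 0.05 ± 0.16 to -0.068, and without animal 2 to -0.055. Psmb9, the counterpart of Psmb6, was at 8.52, 8.57, 8.92, 8.40 and 8.81 with seasoning and 8.49, 8.65, 8.42, 8.71 and 8.44 without, a difference of 0.10 ± 0.11. It was 0.032 without seasoned animal 7, 0.059 without seasoned animal 13, 0.163 without seasoned animal 10 and 0.169 with array weights. Animal 7 was again the highest liver, and animal 10 the lowest of all livers.

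Of the ATPases, which unfold substrates and open the gate of the core, only Psmc1 varied among 6. Its signals were 8.86, 8.81, 8.85, 8.72 and 8.88 with seasoning and 8.83, 8.81, 8.73, 8.79 and 8.80 without, a difference of 0.03 ± 0.03. Animal 10 of the seasoned group and animal 8 of the controls were the lowest of their groups. The difference was 0.017 without seasoned animal 13, 0.056 without seasoned animal 10, 0.014 without control animal 8, 0.049 with array weights and 0.007 after centring on varying genes. The 5 near-constant ATPases had mean signals from 8.63 to 10.04.

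In the lid and base class 4 of 14 varied, with 3 positive differences, 1 negative and a median of 0.046. That median was -0.008 without seasoned animal 13, 0.023 without seasoned animal 7, 0.069 without seasoned animal 10, 0.029 without control animal 8 and 0.028 without control animal 11. Psmd10, also called gankyrin, is a chaperone that brings an ATPase into the base and is known as an oncoprotein of liver cancer. It was at 7.72, 7.64, 7.67, 7.63 and 7.55 with seasoning and at 7.88, 7.91, 7.83, 7.58 and 7.84 without. Control animals 2, 5, 8 and 14 lay above all seasoned livers, and control animal 11 lay below 4 of the 5. The difference was -0.17 ± 0.06 (95% interval -0.31 to -0.02, limma unadjusted p = 0.0286, adjusted p = 0.944 over all genes and 0.357 among varying genes).

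Psmd10 kept its sign under every alternative run, between -0.223 and -0.141. Without control animal 11 it was -0.223 ± 0.035, with an adjusted p of 0.172 over all genes and 0.0787 among varying genes by limma. The lower animal numbers gave -0.22 and the higher ones -0.16. The same control animal had a low signal of the clock output gene Dbp, at 7.28 against 9.08 to 9.43 in the other controls and 5.94 to 7.05 in seasoned livers. Centred on the diet means, Psmd10 and Dbp had r = 0.566 and rho = 0.000 over the 10 livers (exact permutation p = 0.184 and 1, adjusted p = 0.573 and 1 over 112 relations), and r was 0.465 without the 2 livers farthest from the median of Psmd10 and 0.929 when centred on diet and animal-number set. The part of clock phase in the Psmd10 difference was not tested.

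Psmd5, a chaperone that holds base intermediates, was at 8.61, 8.66, 8.82, 8.72 and 8.83 with seasoning and at 8.71, 8.77, 8.67, 8.51 and 8.60 without (difference 0.07 ± 0.06, and 0.039 without control animal 11). Psmd9, a further base chaperone, ran from 7.55 to 8.18 in seasoned livers and from 7.60 to 7.83 in controls, with 0.07 ± 0.12. Seasoned animal 13 was the highest for both chaperones, and the difference of Psmd9 was -0.021 without it. Psmd4, the ubiquitin receptor, ran from 8.10 to 8.35 and from 8.18 to 8.27, a difference of 0.02 ± 0.05. It was -0.001 without seasoned animal 1.

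Psmd11, a lid subunit, shows what the choice of probe set does. Its brightest probe set was near-constant at 9.47, and another varied. That one was at 9.49, 9.44, 9.41, 9.23 and 9.28 with seasoning and at 9.39, 9.39, 9.16, 9.06 and 9.17 without. Seasoned animals 1, 4 and 7 lay above every control, and the difference was 0.14 ± 0.08 (limma unadjusted p = 0.119, adjusted p = 1 over all genes by largest-SD probe sets). Only 2 of the 14 further probe sets of members varied, and the other, of Psme4, differed by -0.02 where the brightest probe set of that gene differed by 0.06.

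Among activators, inhibitor and core chaperones 4 of 8 varied, all with positive differences and a median of 0.074. This was 0.049 without seasoned animal 7, 0.040 without control animal 11, 0.035 with the mean of all probe sets and 0.030 with the block of animal numbers. Psme1, a subunit of the interferon-induced activator that opens the core without ATP, was at 10.95, 10.98, 10.97, 10.68 and 10.55 with seasoning and at 10.82, 10.95, 10.56, 10.57 and 10.69 without. Psme4, an activator associated with acetylated histones, was at 9.02, 9.0, 8.98, 8.74 and 8.75 with seasoning and at 8.95, 8.98, 8.80, 8.58 and 8.86 without. In both genes animals 1, 4 and 7 lay above animals 10 and 13 within the seasoned group, and animals 2 and 5 above animals 8, 11 and 14 in Psme1 and Psme4 alike within the controls. The diet differences were 0.11 ± 0.11 for Psme1 and 0.06 ± 0.09 for Psme4, and Psme4 was -0.002 without control animal 11. Leaving out 1 liver took Psme1 from 0.069 (without seasoned animal 4 or control animal 8) to 0.177 (without seasoned animal 13), and it was 0.045 with the block of animal numbers, 0.054 with the mean of all probe sets and 0.219 with array weights. For Psme4 the highest such value was 0.101, without seasoned animal 10.

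Psmg1, the chaperone of the alpha ring, was at 9.07, 9.09, 9.30, 9.14 and 9.28 with seasoning and at 9.16, 9.20, 9.09, 8.99 and 9.03 without. Seasoned animals 7 and 13 were above every control, and the difference was 0.09 ± 0.06, or 0.056 without seasoned animal 7. Psmf1, an inhibitor of the core in vitro, had the narrowest range of the varying members, with 8.89, 8.85, 8.89, 8.84 and 8.89 against 8.85, 8.87, 8.84, 8.87 and 8.86, and differed by 0.02 ± 0.01. The near-constant Psmg2, Psmg3 and Psmg4 had means from 7.55 to 8.33.

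**Figure D3:**
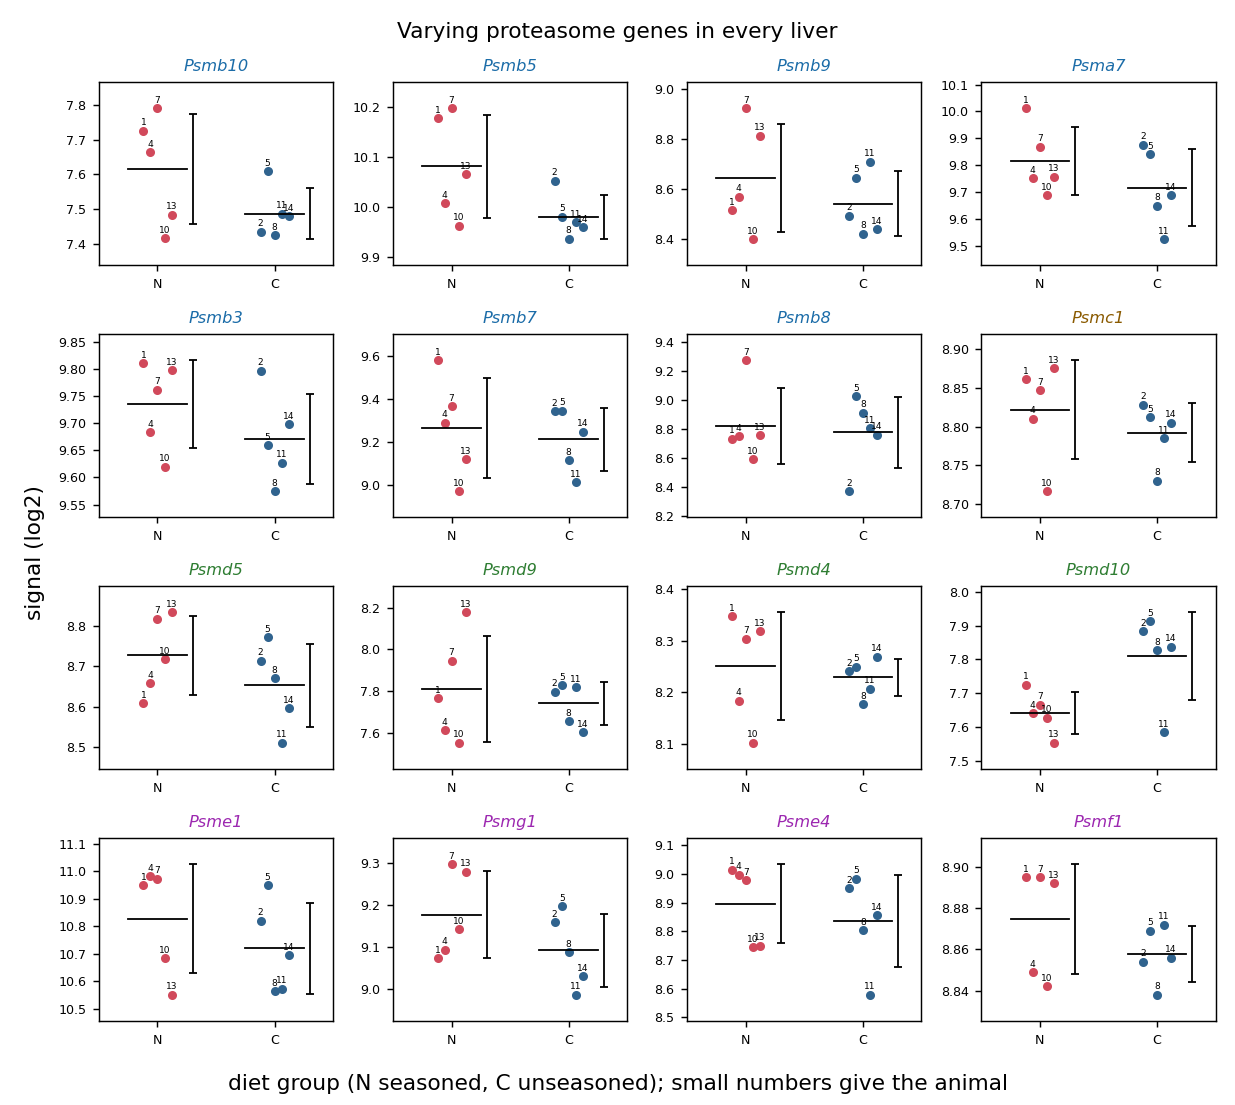
Log2 signal of the 16 varying proteasome genes in every liver, with N-group in red, C-group in blue, animal numbers beside the points, group means as horizontal lines and bars of ± 1 SD (5 livers per group; each panel has its own vertical scale). The groups overlap in every panel, and in Psmd10 only control animal 11 lies among the seasoned livers.

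Averaged over the 16 varying members and set against the control mean, the seasoned livers lay at 0.11, 0.03, 0.17, -0.08 and 0.06 (animals 1, 4, 7, 10 and 13) and the controls at 0.03, 0.10, -0.05, -0.07 and -0.02 (animals 2, 5, 8, 11 and 14). Seasoned animal 7 and control animal 5 each had 15 of 16 members above the control mean, and seasoned animal 10 had 2. The highest signal of a member was in seasoned animal 1 for 6 genes and in animal 7 for 5, and the lowest was in seasoned animal 10 for 6 and in control animal 11 for 4. The seasoned diet thus held both the highest and the lowest liver of the complex. Averaged over all 2613 varying genes, seasoned animals 1, 4, 7, 10 and 13 were at 0.08, 0.08, 0.05, -0.07 and -0.06. Control animals 2, 5, 8, 11 and 14 were at 0.02, 0.12, -0.01, -0.12 and -0.01. Part of the order was thus shared with varying genes at large, while seasoned animal 13 was positive in the members and negative there.

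The differences are given next within lower and within higher animal numbers. This division, at animal 7, comes from an earlier look at these data, and within each diet array positions rise with animal number. In animals 1 to 7 (3 seasoned, 2 control) 12 of 16 members were higher with seasoning, and in animals 8 to 14 (2 seasoned, 3 control) 11 of 16 were, against 49.1% and 47.3% of all varying genes. Only 9 of 16 members (56.2%) had the same sign in both sets, where 56.9% of all varying genes had. Medians were 0.027 and 0.017. Psmb5, Psmb9 and Psmd10 had differences of like sign and over 0.05 in both. Psmd5, Psmg1 and Psmd9 differed by -0.05, -0.02 and -0.04 in the lower numbers and by 0.18, 0.18 and 0.17 in the higher ones, while Psmb8 went from 0.22 to -0.15. Whether the diet difference itself differs between the sets was not tested.

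**Figure D4:**
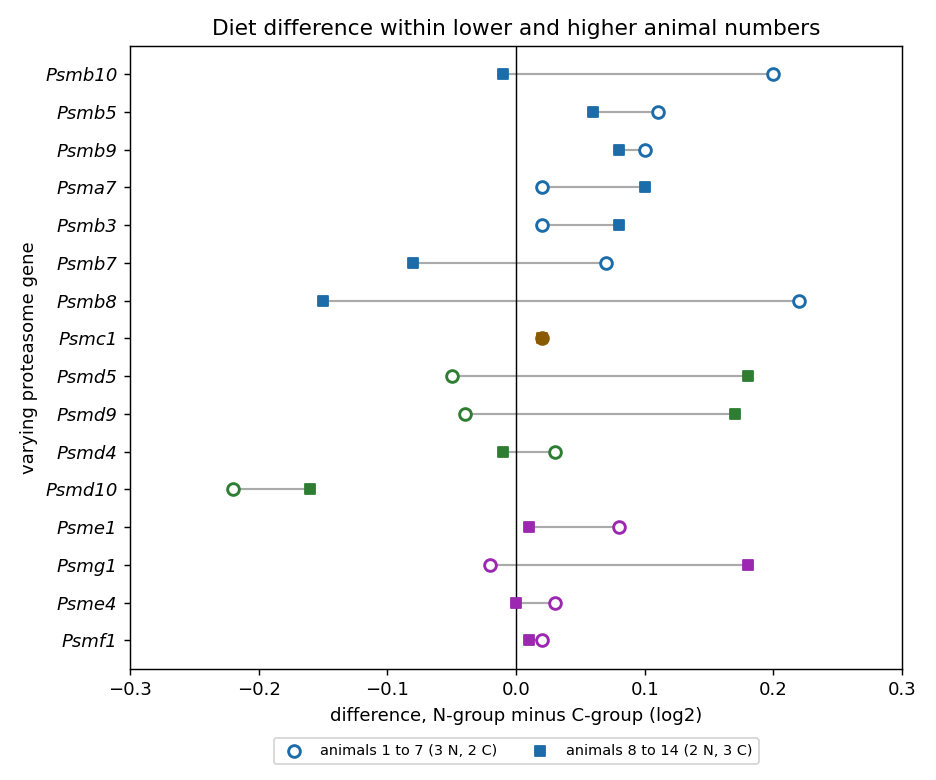
Log2 difference, N-group minus C-group, of the 16 varying proteasome genes within animals 1 to 7 (open circles) and animals 8 to 14 (filled squares), coloured by class as before. Lines that cross 0 join values of opposite sign, as for Psmb8 (0.22 and -0.15) and Psmg1 (-0.02 and 0.18).

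All 16 members were lower in animals 8 to 14 than in animals 1 to 7 once diet was accounted for, by a median of 0.064 on the log2 scale (an effect of -0.064), beside 76.8% of all varying genes with a median effect of -0.139. Psme1 (-0.31), Psmb7 (-0.29), Psme4 (-0.24) and Psma7 (-0.20) had the largest of these effects, and Psmf1 (-0.01) and Psmd9 (-0.02) the smallest. With this set as a block 14 of 16 diet differences were positive, and Psmb7 was -0.007. These values are given without a test, since the division was chosen for the number of genes that differ across it.

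Some pairs of varying members, from the same part or from different parts of the complex, correlated across livers by Pearson's r. Over the 10 livers, each centred on its diet mean, the 120 pairs of members had a median Pearson r of 0.394, against 0.227 for all pairs of varying genes, and 13 pairs (10.8%) had r above 0.8, against 6.88% of all. By Pearson's r 10 pairs had an adjusted p under 0.05 (exact two-sided permutation within the diets, adjusted over 120 pairs), and by rank 0 did, with a smallest adjusted p of 0.05. The permutation test was not run on all pairs of varying genes. It exchanged livers freely within a diet, so an order by animal number that genes share enters these p-values. Centred on diet and animal-number set, the median r was 0.360 for pairs of members and 0.143 for all pairs of varying genes. Psmg1 and Psmd5 had the highest correlation, r = 0.975 and rho = 0.950 (exact permutation p = 0.000139 and 0.00125, adjusted p = 0.01 and 0.05). It was 0.976 without the 2 livers farthest from the median of Psmd5 and 0.964 when centred on diet and animal-number set. Each of these chaperone genes, 1 for the core and 1 for the base, had the other as its nearest match among all varying genes. The closest further genes, named after their values were seen, were P2ry2, a nucleotide receptor (r = 0.953 with the mean of the pair), and Iftap (0.946).

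Psma7 and Psmb7, of the alpha and beta rings, had r = 0.911 and rho = 0.900 (exact permutation p = 0.000278 and 0.00431, adjusted p = 0.01 and 0.0861), with 0.811 without 2 livers and 0.945 on diet and set. Psmb3, Psmc1 and Psmd4, from the core, the ATPase ring and the base, formed a second group. Psmc1 and Psmd4 had r = 0.916 and rho = 0.750 (exact permutation p = 0.00181 and 0.0336, adjusted p = 0.031 and 0.224), with 0.830 without 2 livers and 0.926 on diet and set. Psmd10 and Psme4 had r = 0.889 and rho = 0.900 (exact permutation p = 0.000417 and 0.00431, adjusted p = 0.01 and 0.0861), and r without 2 livers was 0.836. Psme1 and Psme4 had r = 0.881, and rho = 0.750 (exact permutation p = 0.00167 and 0.0336, adjusted p = 0.031 and 0.224), with 0.862 without 2 livers and 0.392 on diet and set. Unlike Psmg1 and Psmd5, the genes of these pairs were not each other's nearest match among all varying genes. For Psma7, Psmb7 ranked 32, and in the other direction the rank was 46. The ranks were 6 and 4 for Psmc1 and Psmd4, 67 and 277 for Psmd10 and Psme4, and 268 and 324 for Psme1 and Psme4. Psmb9 and Psmd10 had the most negative r, at -0.350.

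**Figure D5:**
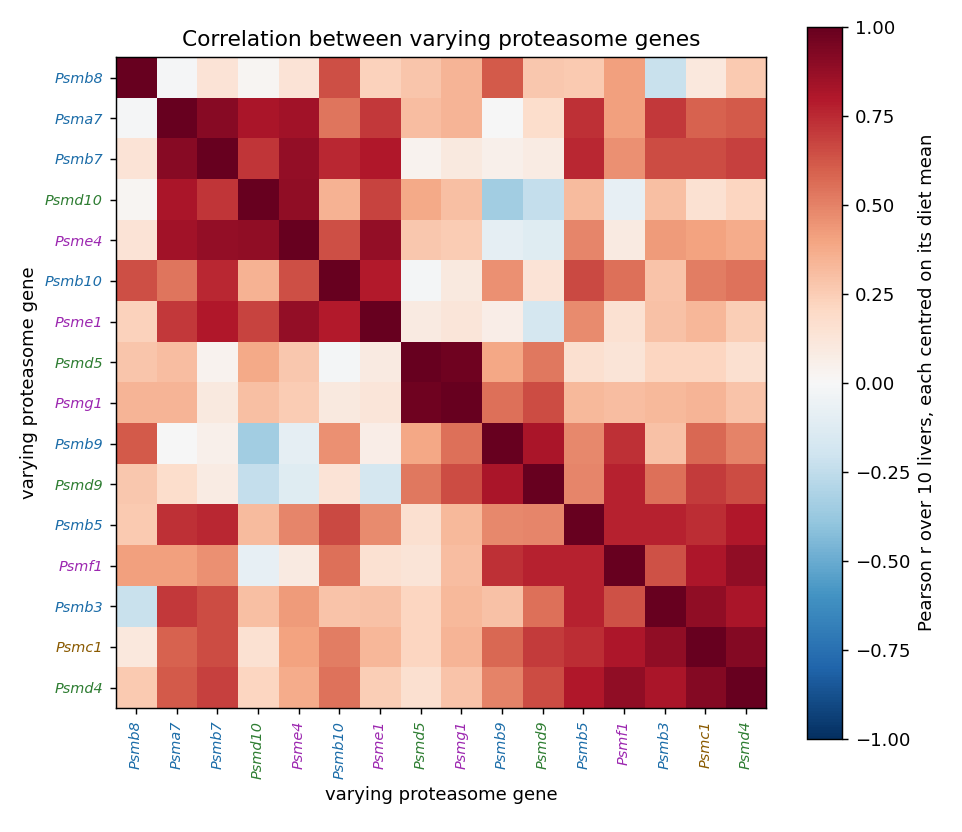
Pearson correlation between the 16 varying proteasome genes over 10 livers, each liver centred on its diet mean, with genes ordered by average-linkage clustering and names coloured by class. Psmd5 and Psmg1 form the tightest pair at 0.975, and a block of Psma7, Psmb7, Psmd10, Psme4, Psmb10 and Psme1 stands beside a block of Psmb3, Psmb5, Psmc1, Psmd4 and Psmf1.

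The immunoproteasome genes were set beside genes of interferon response and antigen presentation. Of 25 listed genes 21 were measured and 11 varied, 9 with positive and 2 with negative differences, where 57.3% of all varying genes were positive. Over all genes or among varying genes 0 passed. An unadjusted p under 0.05 by limma was found in 11.6% of all varying genes and in 1 of these 11, which was higher. That gene was Irf1, an interferon-induced transcription factor that drives Psmb9 and Tap1. It was at 7.85, 8.07, 8.0, 7.47 and 7.63 with seasoning and at 7.38, 7.59, 7.32, 7.47 and 7.24 without, a difference of 0.41 ± 0.12 (limma unadjusted p = 0.0109, adjusted p = 0.761 over all genes). Seasoned animals 1, 4, 7 and 13 were above every control. Calr, an endoplasmic reticulum chaperone of the peptide loading complex, differed by 0.19 ± 0.11, and the interferon-induced Mx2 and Mx1 by 0.32 ± 0.25 and 0.02 ± 0.01. Tap1, the peptide transporter subunit, differed by 0.00 ± 0.14.

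Irf1 and Psmb10 had r = 0.855 and rho = 0.700 over the 10 livers centred on diet (exact permutation p = 0.0142 and 0.0522, adjusted p = 0.35 and 0.474 over 112 relations), 0.913 without the 2 livers farthest from the median of Psmb10, and 0.432 when centred on diet and set. Psmb8 had r = 0.841 with Isg15, a ubiquitin-like protein induced by interferon, and r = 0.830 with Mx2. Without seasoned animal 7 and control animal 2, the livers farthest from the median of Psmb8, these were -0.107 and 0.176, so the relations rested on those livers. Centred on diet and animal-number set, with all 10 livers, they were 0.876 and 0.890. Of the 112 relations between 8 members and 14 other measures 0 had an adjusted p under 0.05 by exact permutation.

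Kupffer cells, the resident macrophages of the liver, and leukocytes express the immunoproteasome strongly, and bulk signals cannot tell fewer cells of a type from less RNA per cell. Of 10 listed macrophage and Kupffer cell markers 9 were measured, 8 varied and 0 were called. Differences were positive in 6 and negative in 2 of the varying ones, with a median of 0.041. List means ran from 7.92 to 8.48 in seasoned livers and from 8.05 to 8.29 in controls. The mean of the 8 varying markers had r = 0.836 with Psme1 and r = 0.820 with Psmb10 (adjusted p = 0.35 each, exact permutation), and -0.156 and -0.015 when centred on diet and animal-number set. Clec4f, which marks Kupffer cells, was at 10.42, 10.63, 10.38, 9.70 and 9.84 with seasoning and at 10.22, 10.17, 9.84, 9.68 and 9.86 without. Its difference of 0.24 ± 0.20 was the largest among the varying markers of the list. The others ran from -0.01 (Csf1r and Adgre1) to 0.11 (Cd68). The part of these cells in the signals of Psme1 and Psmb10 was not tested. The 11 measured leukocyte markers were near-constant, 7 of them under the median of all signals (6.48). Of the hepatocyte list 9 genes were measured at means from 12.16 to 14.34, and 0 were called. Apoa1, an apolipoprotein secreted by hepatocytes, had an unadjusted p of 0.0093 by limma (12.20 to 12.45 with seasoning, 11.88 to 12.17 without, difference 0.23 ± 0.07, adjusted p = 0.753). Its groups did not overlap, as in 2.72% of all varying genes, and 11.6% of those had an unadjusted p under 0.05. The other varying markers of that list, Cps1 and Ambp, differed by -0.09 ± 0.13 and -0.00 ± 0.06. In the brain list 5 of 6 measured markers lay under 6.48, although the extraction text of the labels speaks of brain. The exception, Mbp, varied, with means of 7.38 with seasoning and 7.15 without (difference 0.23 ± 0.20).

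The regulators and partners of the proteasome showed no called change either. Of 14 genes for the Nfe2l1 and Nfe2l2 stress response, all measured, 8 varied (4 with positive and 4 with negative differences) and 0 were called, with 1 higher and 1 lower at an unadjusted p under 0.05. Of all varying genes 57.3% had a positive difference and 11.6% an unadjusted p under 0.05 by limma. Nqo1, a quinone reductase and standard Nfe2l2 target, was at 8.71, 8.67, 8.83, 8.56 and 8.63 with seasoning and at 8.46, 8.35, 8.56, 8.69 and 8.34 without, a difference of 0.20 ± 0.08. Control animal 11 lay above seasoned animals 4, 10 and 13, and control animal 8 was level with seasoned animal 10 at 8.56. Sqstm1, the autophagy receptor that binds ubiquitin chains, differed by -0.15 ± 0.05, with control animal 11 the lowest control at 11.15. Gclm and Gclc, the subunits of the enzyme that starts glutathione synthesis, differed by -0.21 ± 0.15 and 0.16 ± 0.15. Nfe2l1 itself was near-constant at 7.66.

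Of 24 listed proteasome-associated factors not named Psm, 22 were measured and 3 varied, with 0 called and 0 at an unadjusted p under 0.05. The varying ones were Faf1, an adaptor of the segregase Vcp (-0.01 ± 0.01), Zfand5, a proteasome-binding zinc finger protein (-0.06 ± 0.11), and the ubiquitin ligase Ube3c (0.03 ± 0.07). The core maturation factor Pomp, the base and lid subunits Adrm1 and Sem1, the deubiquitinase Usp14 and the segregase Vcp were near-constant. Of 6 ubiquitin and activating enzyme genes 2 were measured, and Uba1, the main activating enzyme, differed by 0.04 ± 0.06.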

How the data were processed

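The deposited table holds the authors' log2 signals, 1 value per probe set and liver (31099 probe sets, values from 4.79 to 14.34). The summary and normalization are not given in the sources used here, and the log2 base was read from the range of the values. Array medians lay between 6.47 and 6.48. Detection calls were not used here, so no depth is known, and precision rests on how many arrays there are. After 57 control probe sets were left out, 20826 probe sets had 1 gene in the platform's gene table and 436 had several, which gave 14217 genes. All 46 member symbols matched the RefSeq gene table.

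The diets were compared with limma 3.58.1 in R 4.3.3 (lmFit and eBayes, two-sided, no covariate, 5 livers each), adjusted by Benjamini-Hochberg over all genes at 0.05, after tests on simulated data. Fold values are 2 to the log2 difference. The titles number animals separately, so the limma p-values set each difference against the spread between livers of different rats. That spread includes whatever differed between their arrays. The sample codes put all seasoned livers under letter A and all controls under B, and code letter and diet cannot be told apart. Members, lists and the division of animal numbers were chosen with earlier results of these data known. Values by liver are given for the 12 varying members with the smallest p and the catalytic subunits, and of each partner list up to 4 varying genes with the smallest p are named. Psmd11 probe sets, Dbp, Apoa1, Tap1, Isg15, Clec4f, P2ry2 and Iftap were named after their values were seen. Alternatives were a filter on dim genes, other probe set rules, repeated quantile normalization, centring, variance models, array weights, covariates and leaving out each array. Leaving out control animal 11 among varying genes alone was added after seeing the data.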

Additional observations from a re-analysis of the deposited data

Results flagged for a closer look

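The 16 varying proteasome genes gave 32 groups of 5 livers, and in 2 of them 1 liver stood apart from the rest, its distance from the next value being above 0.71 of the full span. Chance alone flags about 1 in 20 such groups, or 1.6 of 32 for independent genes, which these are not. Seasoned animal 7 was high for Psmb8, at 9.28 against 8.59 to 8.76 in the other seasoned livers (ratio 0.760). Control animal 11 was low for Psmd10, at 7.58 against 7.83 to 7.91 in the other controls (ratio 0.738).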

How the results depend on the processing

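No alternative called a proteasome gene. The count of called genes in the whole table, 0 in the deposited values by limma (669 at an unadjusted p under 0.05), was 4 among varying genes, 1 with array weights, 129 after centring on varying genes, which by construction moves the near-constant genes by each array's offset, and 52 among varying genes without control animal 11. Leaving out 1 liver gave 0 to 5 calls, the 5 without control animal 11. The count of positive members lay between 13 and 15 of 16, and was 16 of 17 with the mean of all probe sets, 15 of 17 with the largest-SD probe set and 14 of 15 at an SD above 0.05. Leaving out 1 liver, the median difference of varying members lay between 0.039 and 0.102. Of the values of single members under alternatives, 341 kept their sign and 11 changed it. The 11 were Psmb7 with the animal-number block (-0.007), Psmd4 (-0.001) and Psmf1 (-0.007) after centring, Psme4 by its largest-SD probe set (-0.023) and among varying genes without control animal 11 (-0.002), and, with 1 liver left out, Psmb7 (-0.027 to 0.126), Psmb8 (-0.068 to 0.108), Psmd4 (-0.001 to 0.060), Psmd9 (-0.021 to 0.135) and Psme4 (-0.002 to 0.101). No paired analysis was possible because the groups share no animal number. Assumed pairs of neighbouring numbers changed no call. With 5 arrays a group, Psmd10 at -0.167 ± 0.063 was not called over all genes, and the power to detect differences of that size was not computed.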
